A study of Mus musculus with 13 samples.

Results

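The genes described are those of the proteasome, the particle that degrades most short-lived and damaged proteins of a cell. They were taken by name: every listed gene whose symbol begins with Psma, Psmb, Psmc, Psmd, Psme, Psmf or Psmg, apart from the immunoproteasome genes Psmb8, Psmb9 and Psmb10. The rule found 44 genes among 11761 listed. The RNA came from adipocytes of epididymal white fat of Adipoq-NuTRAP mice on the C57BL/6J background, fed for 10 weeks on chow or on a diet high in fat (HFD). In these mice the Adipoq promoter, active in fat cells, directs tags to their ribosomes and nuclei, and the ribosomes with their RNA were pulled from whole-fat homogenate through GFP (translating ribosome affinity purification). Each diet had 3 RNA libraries, and the 7 chromatin samples of the 13 in the series were not analysed here. The labels give neither the animals' age nor sex, and do not say whether each library was 1 animal, so a p-value here reflects only how far these libraries scatter, which may be technical.

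The 26S proteasome joins a barrel-shaped core particle (20S) to a regulatory particle (19S). Alpha subunits (Psma genes) form the outer rings of the core and gate its entrance, and beta subunits (Psmb genes) form the inner rings that hold the cutting sites. The regulatory particle has a base of ATPases (Psmc genes), which unfold the substrate, with large scaffold subunits and ubiquitin receptors, and a lid of Psmd subunits that includes the enzyme removing ubiquitin chains. Psme genes encode alternative caps, Psmf1 encodes the inhibitor-like protein PI31, and Psmg genes encode chaperones that help build the core. When proteasomes fail, the membrane-bound factor NFE2L1 is processed and raises subunit genes together, and this route is known from brown fat. Cytokines such as interferon gamma replace the standard cutting subunits with the immunoproteasome forms.

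Levels are CPM, that is read counts scaled to a common effective library size. That size came to 23200000 reads for chow replicate 1, 32500000 for replicate 2 and 7430000 for replicate 3, and to between 32000000 and 39400000 for the HFD libraries. Chow replicate 3 was the shallowest library and had the most residual ribosomal RNA (Rn45s at 23170 CPM against 4068 to 12503 CPM). A member's value rested on at least 186 reads outside that library and at least 60 reads in it, where 60 reads carry a counting error of 12.9%. Chow replicate 2 stood apart in genes that respond to interferon gamma, with the highest level of all 6 libraries for 9 of 14. Adipoq, the adiponectin gene that defines adipocytes, lay between 1978 and 2740 CPM in chow and between 1305 and 1585 CPM in HFD. Of 25 adipocyte identity genes, 3 were higher, 11 lower and 11 not called. Of all genes tested, 19.1% were called higher and 16% lower. Markers of other cells of fat were present. Most macrophage, endothelial and smooth muscle markers were higher in HFD, while the fibroblast and progenitor sums overlapped between the diets. The summed level of 16 macrophage genes ranged from 184 to 215 CPM in chow and 532 to 752 CPM in HFD (14 genes higher, 1 lower). That of 10 endothelial genes ranged from 30.3 to 79.3 and 131 to 286 CPM (9 higher, 0 lower). The 6 smooth muscle genes summed to 84.8 to 98.3 CPM in chow and 513 to 898 CPM in HFD (6 higher), the 10 fibroblast and progenitor genes to 2102 to 3573 and 2028 to 3834 CPM (3 higher), and the 6 mesothelial genes to 18.5 to 30.0 and 44.1 to 131 CPM (3 higher). The epididymal markers Lcn5, Lcn8 and Defb20 were not among the listed genes. In RNA pulled from homogenate, the number of cells of a type, RNA per cell and carry-over into the pulldown cannot be told apart. The part of these cells in the results below was not tested.

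Most proteasome genes did not pass the test between the diets, and those that did moved in both directions by small amounts. Of the 44 genes, 2 rose, Psme4 and Psmd6, and 3 fell, Psmb4, Psmd1 and Psmd11, in HFD (limma, adjusted p under 0.05 after Benjamini-Hochberg adjustment over all genes tested). That is 11.4% of the members, where 35.1% of the 11643 genes tested were called, 19.1% as higher and 16% as lower. Under a stricter filter of 5 CPM on the mean, which also kept all 44 members, 34.4% were called. The filter at a mean of 1 CPM removed no member. At an unadjusted p under 0.05 the counts were 10 of 44 members (22.7%) and 45.6% of all genes. Chow and HFD libraries did not overlap for 14 members (31.8%), 4 higher and 10 lower in HFD, and for 50.2% of all genes tested.

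The differences were small as well as few. The largest among the members, in either direction, was 0.64 on the scale of log2(CPM + 1), HFD minus chow, and 28.2% of all genes tested exceeded it. The median size was 0.21 for the members and 0.37 for all genes. The 95% interval of the difference lay wholly within 1 log2 unit of 0, a change of less than 2-fold, for 43 of 44 members (97.7%) and for 65.6% of all genes. Psmg3 was the exception, with an interval from -1.20 to -0.084. With signs kept, the members' median was -0.14 against -0.0036 for all genes, and 29 members had lower and 15 higher values in HFD. The sign of that median depends on the scaling, as it was 0.13 when libraries were scaled to the median adipocyte identity gene, which moved the median of all genes to 0.25. With libraries scaled to equal totals the members' median was -0.028, against 0.10 for all genes.

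**Figure D1:**
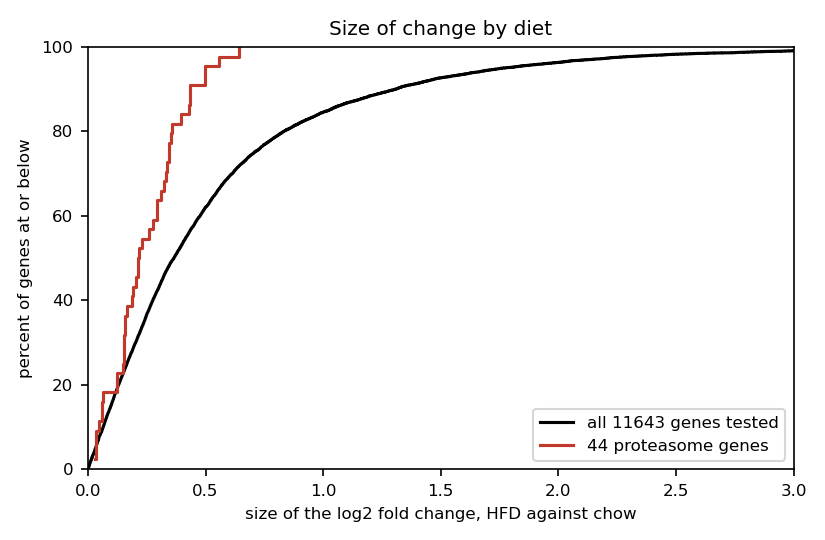
Percent of genes (vertical axis) whose log2 fold change between HFD and chow was at or below the size on the horizontal axis, for the 44 proteasome genes (red) and all 11643 genes tested (black; sizes above 3 are not drawn). The red line reaches 100% at 0.64, a size that 28.2% of all genes exceeded.

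**Figure D2:**
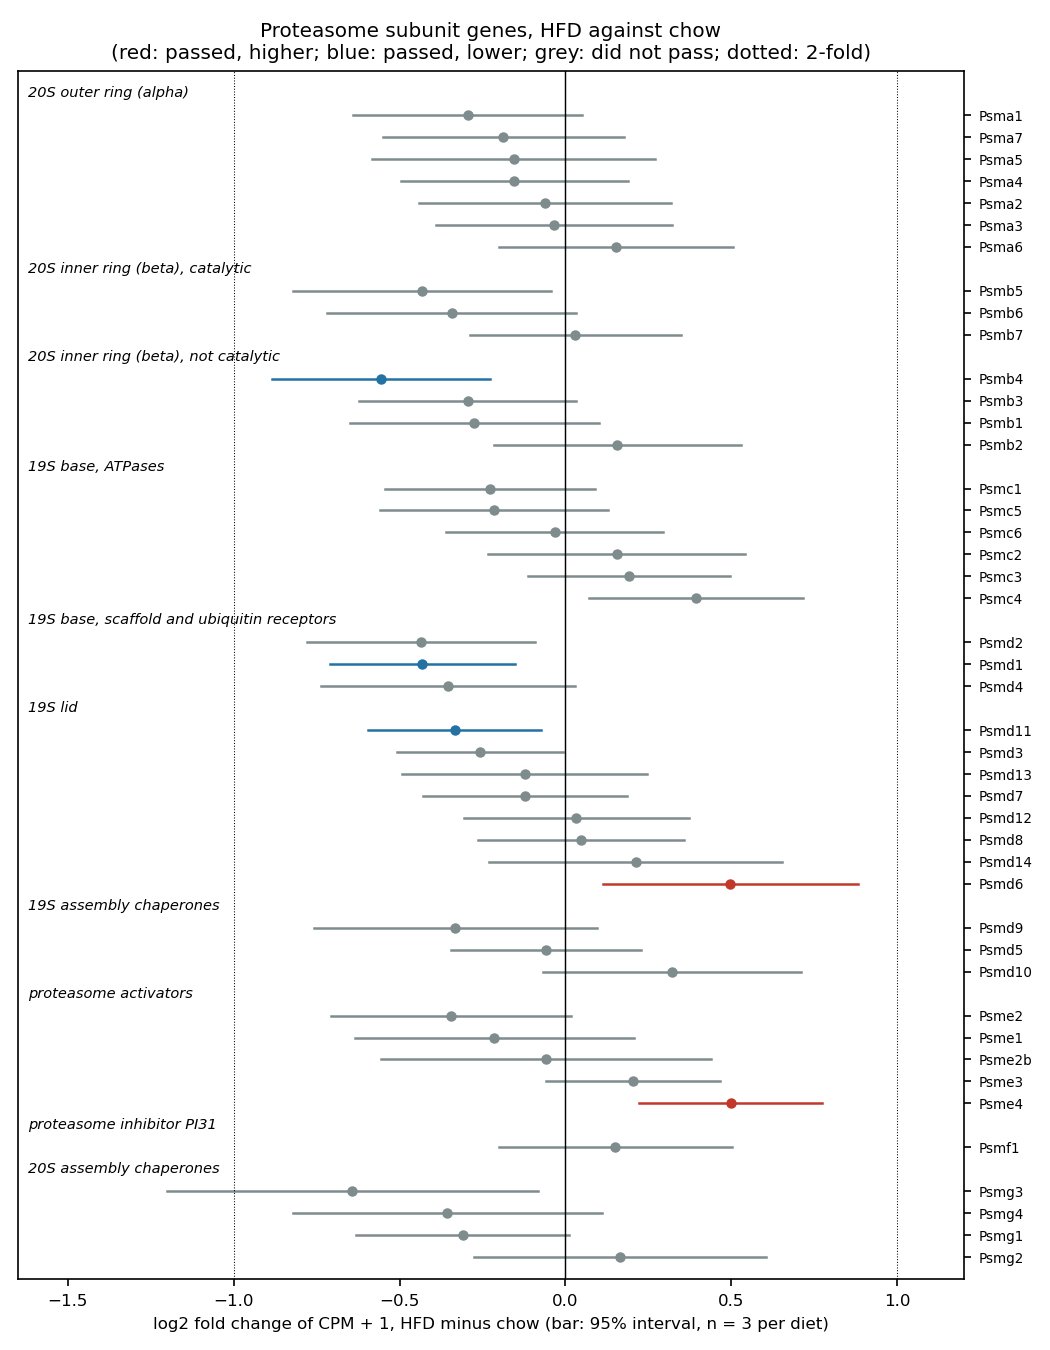
Log2 fold change of CPM + 1, HFD minus chow, for each of the 44 genes by structural group, with its 95% interval (n = 3 libraries per diet) and dotted lines at 2-fold. Psme4 and Psmd6 (red) passed as higher and Psmb4, Psmd1 and Psmd11 (blue) as lower; the other 39 (grey) did not pass.

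Psme4, which encodes PA200, a large nuclear activator that caps the core without ubiquitin or ATP, rose in HFD. Its level was 218, 218 and 215 CPM in the 3 chow libraries and 278, 302 and 345 CPM in HFD. The chow libraries lay close together and below every HFD library. On the log2 scale HFD minus chow was 0.50 (SE 0.12; limma adjusted p 0.0123). It passed in 14 of 15 alternative analyses and was lost without HFD replicate 3 (0.42, adjusted p 0.0689). Psme4 lies on GRCm38.p6 chromosome 11 at 30771775 to 30881150 and its span overlaps that of Erlec1, which is also listed. Erlec1, an endoplasmic reticulum lectin gene, differed by 0.092 (SE 0.15, limma adjusted p 0.654).

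The other caps did not pass. Psme3, encoding the nuclear activator PA28 gamma, stood at 74.0, 70.5 and 73.0 CPM on chow, then 77.7, 88.6 and 85.0 on HFD, without overlap but without passing (0.20, 95% interval -0.058 to 0.47, limma adjusted p 0.203). Psme1 and Psme2 encode the alpha and beta subunits of PA28, the cytosolic cap that interferon gamma raises. Psme1 was at 66.7, 105 and 66.3 CPM on chow, then 65.8, 74.0 and 60.5 on HFD. Psme2 was at 60.1, 88.6 and 74.0 CPM on chow, then 53.8, 64.0 and 55.3 on HFD. Psme2b, a near copy of Psme2 between which reads may be split, was at 31.3, 56.5 and 35.0 CPM on chow, then 32.9, 44.9 and 37.0 on HFD. For each of these genes chow replicate 2 was the highest of the 6 libraries, and the diets overlapped. Their log2 fold changes were -0.21 for Psme1, -0.34 for Psme2 and -0.059 for Psme2b, and without chow replicate 2 that of Psme1 was 0.0017 and that of Psme2b 0.19. Psmf1 (PI31) was at 23.3, 29.7 and 22.6 CPM on chow, then 25.5, 29.7 and 28.6 on HFD and did not pass (0.15, 95% interval -0.20 to 0.50).

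NFE2L1 and its relative NFE2L2 bind, with a small MAF partner, the antioxidant response element, whose core is TGACNNNGC. Promoter windows of 250 bases before to 50 after the gene start were taken from RefSeq (GRCm38.p6) for the 37 members that matched, and both strands were searched for this core and for CCAAT, the box bound by NF-Y (matches of both may overlap). The core was found in 6 of 40 windows (15%), close to the 14.4% of windows of tested genes and 12.4% of all 32851 windows. CCAAT was found in 12 of 40 windows (30%), against 36.7% and 37.4%. The windows with the core belong to Psme4, Psmb5, Psmb6, Psmc6, Psmd9 and Psmd12, and the matches are shown because the pathway known to raise these genes together binds this core. Each is given 5′ to 3′ on the gene's strand with the 9 letters of the match in capitals. In Psme4, Psmd12 and Psmc6 the core reads on the other strand.
Psme4, chromosome 11, 30771753 to 30771791: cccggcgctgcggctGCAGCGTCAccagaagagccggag
Psmb5, chromosome 14, 54618019 to 54618057: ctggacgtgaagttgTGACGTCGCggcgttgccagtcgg
Psmb6, chromosome 11, 70525333 to 70525371: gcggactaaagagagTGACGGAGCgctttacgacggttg
Psmd9, chromosome 5, 123228144 to 123228182: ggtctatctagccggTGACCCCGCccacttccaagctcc
Psmc6, chromosome 14, 45329582 to 45329620: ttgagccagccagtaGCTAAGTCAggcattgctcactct
Psmd12, chromosome 11, 107479278 to 107479304: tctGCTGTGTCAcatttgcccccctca

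Distances are from the transcript start on which each RefSeq window is built; for Psmb6 that start lies inside the gene's annotated span, and so does its match. The match began 7 bases before the start of Psme4, 9 before that of Psmb6, 47 before that of Psmb5 and 31 before that of Psmd9, but 227 before that of Psmc6 and 247 before that of Psmd12. The 6 members with the core had log2 fold changes from -0.43 (Psmb5) to 0.50 (Psme4), with a median of -0.18, and the 31 without it a median of -0.16. The 12 members with CCAAT had a median of -0.049, and the 25 without it had a median of -0.21. Of the called genes, 0 were among the 12 and 5 (2 higher, 3 lower) among the 25. With 11.4% of all members called, these counts are too small to set the 2 sets apart. For comparison with Psme4, whose window held 1 core match, the whole window of Psmb4, the called member with the largest fall, is shown, and it held neither motif.
Psme4, chr11:30771525-30771824, plus strand: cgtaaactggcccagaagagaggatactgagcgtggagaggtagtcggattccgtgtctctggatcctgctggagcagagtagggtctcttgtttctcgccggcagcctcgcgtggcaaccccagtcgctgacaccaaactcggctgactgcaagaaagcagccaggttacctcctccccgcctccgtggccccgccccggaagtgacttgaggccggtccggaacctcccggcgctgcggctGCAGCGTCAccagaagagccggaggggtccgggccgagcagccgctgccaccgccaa
Psmb4, chr3:94886909-94887208, minus strand: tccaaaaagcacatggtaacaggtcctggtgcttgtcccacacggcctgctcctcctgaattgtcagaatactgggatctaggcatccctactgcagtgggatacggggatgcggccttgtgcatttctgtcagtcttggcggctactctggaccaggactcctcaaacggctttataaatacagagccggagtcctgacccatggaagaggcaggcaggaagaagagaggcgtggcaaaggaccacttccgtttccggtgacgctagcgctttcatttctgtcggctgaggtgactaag

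In the core particle 1 of 14 genes passed (7.1%, against 35.1% of all genes tested). The median log2 fold change was -0.15 for the alpha genes, -0.34 for the cutting beta genes and -0.28 for the other beta genes. Psmb4, a beta subunit without a cutting site, fell: it was at 136, 155 and 189 CPM on chow, then 101, 119 and 104 on HFD. Every HFD library was below every chow library, and chow replicate 3 was the highest. On the log2 scale HFD minus chow was -0.56 (SE 0.15; limma adjusted p 0.0164). It was -0.43 without chow replicate 3, where it still passed (adjusted p 0.0308), and was not called without HFD replicate 1 (0.0578), without HFD replicate 3 (0.0628) or under scaling to the median adipocyte identity gene (-0.29, 0.405). The other subunits of that kind did not pass. Psmb1 was at 114, 132 and 162 CPM on chow, then 96.3, 132 and 108 on HFD (-0.27). Psmb2, with the highest log2 fold change of them, was at 45.3, 60.5 and 41.9 CPM on chow, then 49.5, 61.4 and 52.7 on HFD (0.16), and Psmb3 differed by -0.29 without overlap of the diets.

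The 3 standard cutting subunits did not pass, where 35.1% of all genes tested did. Psmb5, the chymotrypsin-like subunit and the main target of proteasome inhibitor drugs, was at 38.9, 42.2 and 56.9 CPM on chow, then 29.0, 35.8 and 35.8 on HFD. Its diets did not overlap, but its log2 fold change of -0.43 (95% interval -0.82 to -0.045) had a limma adjusted p of 0.0792. Psmb6, the caspase-like subunit, was at 78.8, 91.1 and 120 CPM on chow, then 73.0, 83.3 and 69.1 on HFD, with overlap (-0.34, interval -0.72 to 0.033). Psmb7, the trypsin-like subunit, was at 127, 147 and 131 CPM on chow, then 121, 163 and 132 on HFD (0.030, interval -0.29 to 0.35). For Psmb5 and Psmb6, unlike Psmb7, chow replicate 3 was the highest library.

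None of the 7 alpha subunit genes passed, and their diets overlapped for all 7. Of all genes tested, 35.1% passed and 50.2% did not overlap. Their log2 fold changes ran from -0.29 for Psma1 to 0.15 for Psma6, with a median of -0.15. Psma1 was at 156, 191 and 170 CPM on chow, then 117, 167 and 141 on HFD. Psma7 was at 86.8, 108 and 93.7 CPM on chow, then 70.0, 103 and 82.7 on HFD (-0.19, 95% interval -0.55 to 0.18). Psma6 was at 103, 122 and 95 CPM on chow, then 102, 142 and 114 on HFD. In these 3 genes the step from HFD replicate 1 to HFD replicate 2 was wider than the difference between the diets' means. The span of Psma3, whose log2 fold change was -0.036, overlaps that of the listed gene 3110056K07Rik. Psma8, the testis form, and Psmb11, the thymus form, were not among the listed genes.

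Summed over its 14 genes, the core particle stood at 1116, 1335 and 1328 CPM on chow, then 963, 1286 and 1075 on HFD. The mean was 1260 ± 124 CPM in chow and 1108 ± 164 CPM in HFD (SD, n = 3 each), a ratio of 0.879 with overlapping libraries. The 17 genes of the regulatory particle summed to 1992, 2148 and 2361 CPM on chow, then 1789, 2199 and 1926 on HFD, a ratio of 0.910, also with overlap. These sums were not rescaled to equal library totals.

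Within the base of the regulatory particle, the scaffold genes Psmd1 and Psmd2 and the receptor gene Psmd4 were lower in all HFD libraries than in any chow library, while the ATPase genes went both ways. Psmd1, the scaffold subunit also called Rpn2, fell: it was at 229, 247 and 271 CPM on chow, then 170, 199 and 184 on HFD. On the log2 scale HFD minus chow was -0.43 (SE 0.12; limma adjusted p 0.0237). Psmd1 was not called with equal totals (-0.32, adjusted p 0.0628), under scaling to the median adipocyte identity gene (-0.17, 0.656), or without chow replicate 2 (0.0583), HFD replicate 1 (0.0821) or HFD replicate 3 (0.0824). Psmd2, the other scaffold (Rpn1), was at 290, 302 and 416 CPM on chow, then 242, 249 and 244 on HFD. It missed the threshold (-0.44, SE 0.15, limma adjusted p 0.0512), with chow replicate 3 standing above the other chow libraries, and was called in 3 of 15 alternatives. Psmd4, the ubiquitin receptor Rpn10, was at 159, 142 and 226 CPM on chow, then 129, 139 and 135 on HFD (-0.35, 95% interval -0.74 to 0.028). The summed level of these 3 genes was 761 ± 132 CPM in chow and 564 ± 23.2 CPM in HFD (SD, n = 3). By library the sums were 678, 692 and 912 CPM on chow, then 541, 588 and 563 on HFD, with chow replicate 3 far the highest. They did not overlap, as was so for 50.2% of all genes tested taken singly. Adrm1, a ubiquitin receptor gene that the rule on names left out, differed by 0.038, with overlap. Psmd1 lies on GRCm38.p6 chromosome 1 at 86064619 to 86139295.

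None of the 6 ATPase genes passed, against 35.1% of all genes tested. Psmc4 (Rpt3) came closest and was higher in all HFD libraries: it was at 54.6, 65.3 and 52.7 CPM on chow, then 66.7, 85.0 and 76.1 on HFD (0.39, 95% interval 0.072 to 0.72, limma adjusted p 0.0586). It passed in 5 of 15 alternatives. At the other end, Psmc1 (Rpt2) was at 124, 130 and 146 CPM on chow, then 99.0, 133 and 111 on HFD (-0.23, interval -0.55 to 0.089). Psmc2, Psmc3, Psmc5 and Psmc6 lay between them, from -0.22 to 0.19. The ATPase genes sit in 1 ring in equal numbers, and their sum was 625 ± 43.9 CPM in chow and 628 ± 92.4 CPM in HFD (SD, n = 3), a ratio of 1.00.

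The lid held 1 gene that rose and 1 that fell. Psmd6 (Rpn7) rose: it was at 69.6, 84.4 and 56.5 CPM on chow, then 85.6, 113 and 97.7 on HFD. The groups did not overlap, though only by a little, as chow replicate 2 lay close below HFD replicate 1. On the log2 scale HFD minus chow was 0.50 (SE 0.17; limma adjusted p 0.0480), and it was 0.35 (0.114) without chow replicate 3. Psmd6 was called in 10 of 15 alternatives. Psmd11 (Rpn6), whose amount has been tied to proteasome assembly in stem cells, fell: it was at 68.1, 66.3 and 65.8 CPM on chow, then 51.6, 51.3 and 55.3 on HFD. Both diets were tight and well apart, with a log2 fold change of -0.33 (SE 0.12, limma adjusted p 0.0492), a call that held in 7 of 15 alternatives. The RefSeq windows of Psmd6, Psmd11 and Psmd1 held neither of the searched motifs.

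The other lid genes did not pass. Psmd14 (Rpn11), the enzyme that cuts ubiquitin chains from substrates, was at 91.1, 119 and 81.0 CPM on chow, then 90.5, 143 and 106 on HFD (0.21, 95% interval -0.23 to 0.65). Psmd3 (Rpn3) was lower in all HFD libraries, at 125, 132 and 136 CPM on chow, then 105, 111 and 112 on HFD (-0.26, interval -0.51 to -0.0069, limma adjusted p 0.102). Psmd7, Psmd8, Psmd12 and Psmd13 lay between -0.12 and 0.046. The lid genes summed to 781 ± 38.8 CPM in chow and 779 ± 95.5 CPM in HFD (SD, n = 3).

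**Figure D3:**
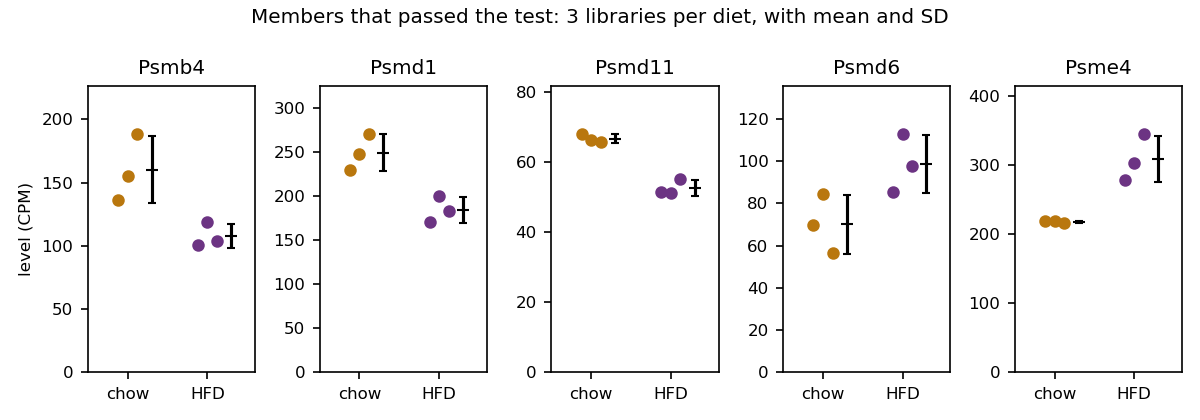
Level in CPM of the 5 members that passed, in each of 3 chow and 3 HFD libraries (points), with mean and SD (bars) and axes from 0. Psmb4, Psmd1 and Psmd11 were lower and Psmd6 and Psme4 higher in every HFD library than in any chow library.

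The assembly chaperone genes did not pass. Psmg3, of the core chaperones, had the largest difference of all members: it was at 9.85, 10.6 and 19.2 CPM on chow, then 7.01, 8.28 and 8.0 on HFD. Chow replicate 3, where the value rested on fewest reads per CPM, was far above the other chow libraries. On the log2 scale HFD minus chow was -0.64 (SE 0.25; limma adjusted p 0.0717). Without chow replicate 3 it was -0.36 (adjusted p 0.147), and Psmg3 was called in 3 of 15 alternatives. Psmg1 was at 31.6, 32.2 and 34.8 CPM on chow, then 23.4, 29.7 and 26.2 on HFD, without overlap (-0.31, 95% interval -0.63 to 0.012), while Psmg4 differed by -0.36. Psmg2 was at 10.3, 12.9 and 14.7 CPM on chow, then 11.7, 16.7 and 14.5 on HFD (0.16). Of the base chaperones, Psmd10 (gankyrin), also studied as an oncogene, was at 22.5, 23.4 and 30.3 CPM on chow, then 26.5, 35.8 and 33.6 on HFD (0.32, interval -0.068 to 0.71). Psmd9 was at 27.9, 25.6 and 41.6 CPM on chow, then 22.8, 25.6 and 24.9 on HFD (-0.33), and Psmd5 differed by -0.059.

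The members moved together between libraries of the same diet. HFD replicate 2 was the highest HFD library, or tied for it, for 40 of 44 members, and HFD replicate 1 the lowest, or tied, for 40 of 44. For all genes tested the matching shares were 36.1% and 37.6%. From HFD replicate 1 to HFD replicate 2 the members' median difference was 0.35 on the log2 scale, positive for 43 of 44, whereas the median over all genes was -0.0093 with 48.8% positive. For 27 of the 44 members (61.4%) this step was larger than the difference between the diets' means, as it was for 35.1% of all genes. The summed level of the 44 members was 3430 CPM in HFD replicate 1, 4265 CPM in HFD replicate 2 and 3781 CPM in HFD replicate 3. The exceptions at the top were Psme4, Psmd11, Psmd3 and Psmd5, all highest in HFD replicate 3.

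In chow, replicate 1 was the lowest library for 30 of 44 members, against 33.2% of all genes tested. Chow replicate 2 exceeded it for 39 of 44 members, with a median difference of 0.20. Over all genes tested this step was positive for 49.5%. Chow replicate 3 was the highest chow library for 21 members, among them Psmd2, Psmd4, Psmb4, Psmb5, Psmb6 and Psmg3. It was the lowest for 11, among them Psmd14, Psmd6, Psmc4 and Psma6. For all genes tested the shares for this library were 39.6% and 40.3%. The chow sums were 3742, 4222 and 4380 CPM for replicates 1, 2 and 3, with a mean of 4115 ± 332 CPM against 3825 ± 420 CPM in HFD (SD, n = 3). The CPM of all listed genes summed to 1182120 in chow replicate 3 and to between 984422 and 1030470 in the other libraries. The members' share of these totals was 0.363, 0.417 and 0.371% in chow and 0.344, 0.433 and 0.379% in HFD. HFD replicate 1, the lowest library for most members, was also the highest HFD library for 14 of 16 macrophage and 10 of 10 endothelial markers. It was so for 7 of 10 fibroblast and progenitor, 3 of 6 smooth muscle and 0 of 6 mesothelial markers. For adipocyte identity genes the count was 11 of 25, and for all genes tested the share was 38.9%. The mesothelial markers were highest in HFD replicate 3 for 6 of 6. The part of other cells in this order was not tested. This order was not particular to the 44 genes. Of the cytosolic chaperone genes followed beside the proteasome, 13 of 16 were highest in HFD replicate 2 and 9 of 16 lowest in HFD replicate 1. These counts were 10 and 10 of 13 proteasome genes without a Psm symbol, and 3 and 3 of 3 immunoproteasome genes. They were 5 and 4 of 5 ubiquitin and E1 genes and 6 and 5 of 8 COP9 signalosome genes. For p97 and its cofactors they were 6 and 9 of 12, and for the NFE2L1 axis 2 and 4 of 10.

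**Figure D4:**
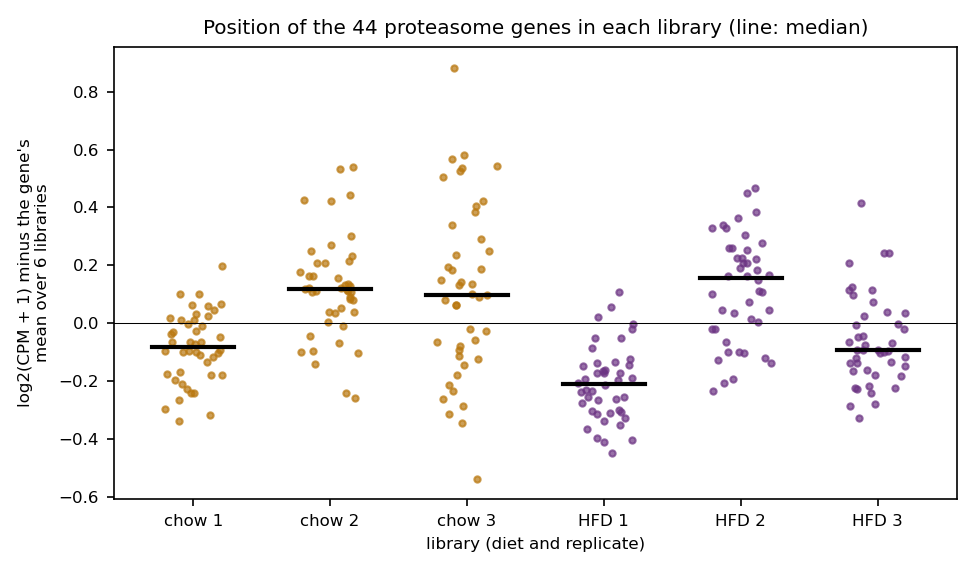
Log2(CPM + 1) of each of the 44 genes minus its mean over the 6 libraries (points, spread sideways at random), by library, with the median as a line. The medians are -0.083, 0.12 and 0.099 in chow replicates 1 to 3 and -0.21, 0.16 and -0.094 in HFD replicates 1 to 3, with HFD replicate 1 lowest and HFD replicate 2 highest of the 6.

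The immunoproteasome genes, left out of the 44 by the rule, were set beside the standard subunits they replace. Psmb8 was at 25.5, 109 and 23.1 CPM on chow, then 19.6, 28.6 and 24.9 on HFD. Psmb9 was at 19.8, 121 and 26.5 CPM on chow, then 13.0, 15.7 and 13.0 on HFD, and Psmb10 at 41.1, 119 and 61.4 CPM on chow, then 38.6, 55.3 and 48.8 on HFD. Chow replicate 2 was the highest library for each, and the diets overlapped for Psmb8 and Psmb10 but not for Psmb9. None passed between the diets with all libraries (limma adjusted p 0.283, 0.0584 and 0.258 for Psmb8, Psmb9 and Psmb10). Psmb9 differed by -1.47 with all libraries and by -0.69 without chow replicate 2, where it passed as lower (adjusted p 0.0325), and it passed in 5 of 15 alternatives. Psmb10 passed without chow replicate 1 (-0.85, adjusted p 0.0335) and Psmb8 with array weights (-1.27, adjusted p 0.0403). In chow replicate 2 Gbp2, an interferon-induced GTPase gene, was at 714 CPM against 54.2 to 158 CPM in the others.

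The ratio of each immunoproteasome gene to the standard gene it replaces, read between libraries and not between pairs, was highest in chow replicate 2. Psmb8 over Psmb5 was 0.655, 2.58 and 0.406 in chow and 0.674, 0.801 and 0.697 in HFD. Psmb9 over Psmb6 was 0.252, 1.33 and 0.221 in chow and 0.178, 0.188 and 0.188 in HFD. Psmb10 over Psmb7 was 0.323, 0.807 and 0.470 in chow and 0.319, 0.339 and 0.371 in HFD. In chow replicate 2, Psmb5 and Psmb6 lay between the other chow libraries and Psmb7 was the highest of them.

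**Figure D5:**
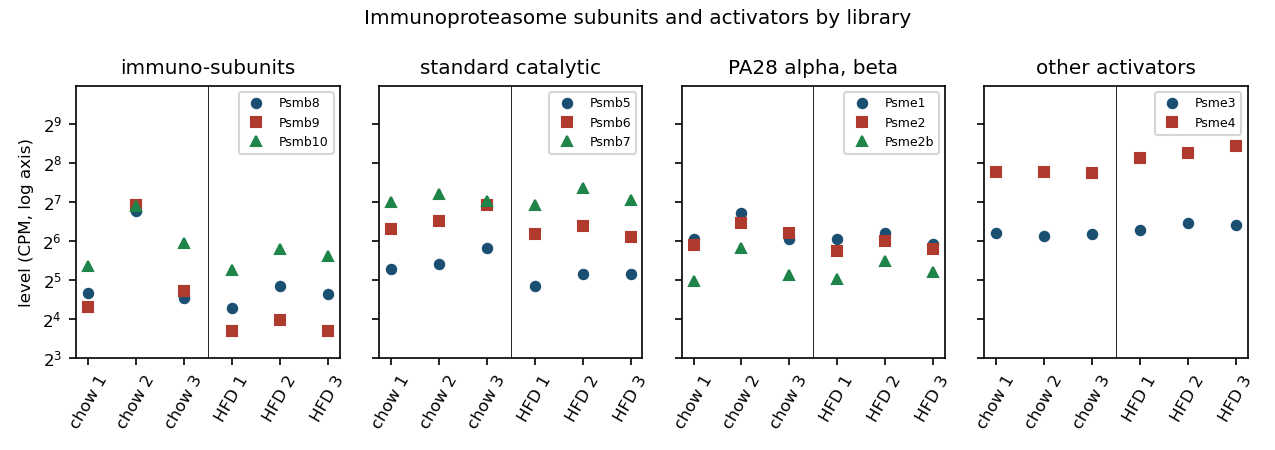
Level in CPM (log axis) in each library of the immunoproteasome genes, the standard cutting subunits, the PA28 alpha and beta genes with Psme2b, and the activators Psme3 and Psme4; the thin line parts chow from HFD. Psmb8, Psmb9 and Psmb10 stand at 109 to 121 CPM in chow replicate 2 and at most 61.4 CPM elsewhere, while Psme4 is higher in all 3 HFD libraries.

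Genes that work with the proteasome but have other symbols showed 0 rises and 3 falls among 13 tested, with a median of -0.28. That is 23.1%, where 35.1% of all genes tested were called, 16% as lower. Zfand5, which stimulates the proteasome in muscle wasting, fell from 130 ± 7.98 CPM on chow to 90.1 ± 7.75 CPM on HFD (SD over 3 libraries; -0.53, SE 0.12, limma adjusted p 0.0092). AI314180, an older symbol for the ECM29 adaptor gene Ecpas, fell by 0.48 on the log2 scale. Zfand5 was not called under identity scaling (-0.26, adjusted p 0.479), and AI314180 neither there (-0.22, 0.532) nor without HFD replicate 2 (0.0539). The subunit genes Adrm1 (Rpn13, a ubiquitin receptor) and Shfm1 (Sem1 or Rpn15) did not pass, at 0.038 and -0.52. Shfm1 was at 76.6, 77.7 and 130 CPM on chow, then 56.5, 70.0 and 65.3 on HFD, with chow replicate 3 the highest. Pomp, the chaperone of core maturation, was at 126, 149 and 228 CPM on chow, then 121, 148 and 121 on HFD, and did not pass. Usp14, a deubiquitinase on the base, differed by 0.023 (95% interval -0.26 to 0.31).

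Nfe2l1 itself was at 1053, 976 and 1399 CPM on chow, then 1201, 1218 and 1226 on HFD, with a log2 fold change of 0.11 (SE 0.16, limma adjusted p 0.642). Nfe2l2 differed by 0.029 (adjusted p 0.9). Of the 10 genes of that axis 2 rose and 3 fell (50% called, against 35.1% of all genes tested). Maff, a small MAF partner, rose from 4.82, 4.89 and 4.72 CPM in chow to 20.3, 39.4 and 30.9 CPM in HFD (2.37), and Mafk rose by 0.97. Mafg, another small MAF gene, had a negative difference and did not pass (-0.54, limma adjusted p 0.0958). It was at 45.3, 26.4 and 48.2 CPM on chow, then 30.7, 22.9 and 25.8 on HFD, with overlap. Ngly1, the deglycosylase that processes NFE2L1, fell from 143, 145 and 172 CPM to 93.1, 99.0 and 98.4 CPM (-0.65, limma adjusted p 0.0033), Bach1, a repressor at the same element, fell by 0.92 and Keap1, which holds NFE2L2 in check, by 0.46. Maff, Mafk and Bach1 were called in 15 of 15 alternatives. Ngly1 was lost under identity scaling (-0.39, adjusted p 0.24). Keap1 was called in 10 of 15, and was lost with equal totals (0.0767), under identity scaling (-0.20, 0.611) and without chow replicate 2 (0.0634), HFD replicate 2 (0.0516) or HFD replicate 3 (0.0761).

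The segregase p97 and its partners, which draw ubiquitinated proteins from membranes and complexes, had 0 rises and 3 falls among 12 tested, with a median of -0.021. That is 25% called, against 35.1% of all genes tested. Vcp, encoding p97, fell from 260, 265 and 370 CPM in chow to 197, 205 and 205 CPM in HFD (-0.54, limma adjusted p 0.0225). Derl1, a channel component of endoplasmic reticulum export, fell by 0.97, a call kept in 15 of 15 alternatives, and Ubxn1 by 0.41, called in 9 of 15. Ubxn1 was lost with equal totals (adjusted p 0.0767), under identity scaling (-0.15, 0.695) and without chow replicate 3 (0.0629) or HFD replicate 1, 2 or 3 (0.109, 0.058 and 0.121). Vcp was called in 11 of 15, and was lost under identity scaling (-0.27, 0.404) and without HFD replicate 1, 2 or 3 (0.0679, 0.0611 and 0.0647). Of 5 ubiquitin and E1 enzyme genes only Ubb passed (20%, against 35.1% of all genes tested). Ubb fell by 0.49 and was called in 10 of 15 alternatives. It was lost with equal totals (adjusted p 0.0568), under identity scaling (-0.23, 0.522) and without chow replicate 3 (0.0707), HFD replicate 1 (0.107) or HFD replicate 3 (0.127). The COP9 signalosome, a complex built like the proteasome lid, had 0 of 8 genes called in either direction (limma; 0 at an unadjusted p under 0.05), with a median of 0.071. Among 16 cytosolic chaperone genes 3 rose and 0 fell: Hspb1, a small heat shock protein gene, by 1.48, Hsph1 by 1.15 and Dnajb1 by 0.58. That is 18.8% called higher, against 19.1% of all genes tested.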

How the data were processed

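RNA from 3 chow and 3 HFD adipocyte pulldowns was analysed. The authors deposited log2 CPM per gene, rounded to 2 decimals; per the submitters' processing notes the build was mm10 and the tools included edgeR, featureCounts, HISAT2 and Picard (for roles, versions and filters: not given in the sources used here). Base 2 of the logs was settled from the values. Effective library sizes were recovered from whole-read steps among low values (all within 0.1 of a read).

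The deposited log2 values were returned to CPM, and limma 3.58.1 (R 4.3.3; eBayes with trend, two-sided) was run on log2(CPM + 1) for the 11643 genes averaging 1 CPM or more, with Benjamini-Hochberg adjustment over all of them and a threshold of 0.05. The script was tested on simulated data. Per the labels' protocols libraries were tagmented from double-stranded cDNA, which does not mark strand, so overlapping genes cannot be told apart: 13 of 44 members overlap another gene's span, 3 of them a listed gene (Psma3, Psme1 and Psme4), and 6 pseudogenes are named after members. Transcript lengths were not used here, so levels are not compared between genes.

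The members, lists and tests were chosen with earlier results of these data known. Genes given with values in every library were the highest and lowest member of each structural group, every called member, a fixed set, and in each related list the highest and lowest called gene; most are given so. Near copies such as Psme2b and Psme2 are uncertain. The authors' table had 0 unmapped columns. Alternatives were pseudocounts, filters, scalings, array weights, a replicate block and each library left out. Some results that these lists cover are not reported here.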

Additional observations from a re-analysis of the deposited data

How the results depend on the processing

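Over 15 alternatives, the members called numbered 0 to 9 of 44, always a smaller share than of all genes tested. Leaving out single libraries gave 0 to 3 higher and 0 to 5 lower members and a median between -0.25 and -0.04, with 1683 to 2102 higher and 1162 to 1740 lower genes in all. Without HFD replicate 3 no member was called, and without HFD replicate 1 no member was called lower. Using the deposited log2 values directly gave 1 higher member and equal totals 1 lower. Array weights gave 4 higher and 5 lower. Scaling to the median adipocyte identity gene gave 0 lower members, a median of 0.13 and 479 lower genes in all. The share of called genes that were higher was 54.4%, and 65.3% with equal totals and 83.8% under identity scaling. The cause of these shifts was not tested.

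With a replicate block, 3 members were higher and 6 lower. Deviations of same-numbered libraries correlated at 0.433, 0.232 and 0.0862 (numbers 1, 2 and 3), chow replicate 3 correlated best with HFD replicate 2, and the libraries share only a number.

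The following values, none of them called, changed sign under an alternative; Psmd3, Psmc1, Psmc5 and Psme1 lay between -0.26 and -0.21 with all libraries. With equal totals these were Psmd5 (0.050), Psme2b (0.049), Psma3 (0.073), Psma2 (0.047) and Psmc6 (0.077). With quantile normalization they were Psmc6 (0.031) and Adrm1 (-0.037). Under identity scaling they were Psmd5 (0.20), Psma7 (0.076), Psma5 (0.10), Psmd13 (0.14), Psmd7 (0.14), Psma4 (0.11), Psme2b (0.20), Psmd3 (0.0066), Psmc5 (0.050), Psma3 (0.22), Psmc1 (0.036), Psma2 (0.20), Psmc6 (0.23) and Psme1 (0.048). With array weights they were Psmd5 (0.0029), Psmb7 (-0.038), Psmd8 (-0.020), Psmd13 (0.016), Nfe2l2 (-0.0030) and Usp14 (-0.010).

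With single libraries left out, values ranged from -0.11 to 0.0082 for Psmd5, -0.093 to 0.12 for Psmb7, -0.28 to 0.017 for Psma5, -0.081 to 0.13 for Psmd8, -0.22 to 0.058 for Psmd13, -0.22 to 0.19 for Psme2b, -0.062 to 0.17 for Psmd12, -0.16 to 0.064 for Psma3, -0.19 to 0.077 for Psma2, -0.17 to 0.066 for Psmc6, -0.32 to 0.0017 for Psme1, -0.12 to 0.15 for Nfe2l2, -0.033 to 0.095 for Adrm1, -0.043 to 0.10 for Usp14 and -1.18 to 0.67 for Gbp2.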
